A study of Homo sapiens with 14 samples.

Results

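The subject of these results is the box H/ACA class of small noncoding RNAs, the H/ACA snoRNAs and scaRNAs, in OCI-AML2 cells. A member is a gene whose GENCODE 29 symbol begins with SNORA or SCARNA, whose annotated type is snoRNA or scaRNA, and which had at least 20 reads summed over the 4 RiboLace libraries. By that rule 55 genes were kept of 171 annotated ones, 41 of 147 with a SNORA symbol and 14 of 24 with a SCARNA symbol, in a table of 58037 gene IDs. The RiboLace reads thus chose the members, and their level in RiboLace is a description and not a finding. Just inside the threshold stood SNORA80D with 21 summed reads, SNORA71A with 22 and SNORA5C with 23. Just outside it stood SNORA2B with 17 reads, SNORA11F with 15 and SCARNA20 with 14.

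OCI-AML2 is a human acute myeloid leukaemia line, and all libraries derive from it. Mutant cells (Runx1R174*/wt) carried a stop codon in RUNX1, a transcription factor of blood cell development, on 1 allele, and wild-type cells (Runx1wt/wt) were the parent line. RiboLace, which captures translating ribosomes and their RNA by means of a puromycin-like probe, was sequenced in 2 mutant libraries, both of line F3, and 2 wild-type libraries, all without treatment. Total RNA was sequenced in 4 mutant libraries treated with 100 nM homoharringtonine (HHT), an inhibitor of translation elongation, for 8 h, in 4 mutant control libraries and in 2 wild-type libraries. In both mutant sets of total RNA, replicates 1 and 2 were line F3 and replicates 3 and 4 line G7. The controls carry a label of 8 h and another of 0 h, and wild-type total RNA is labelled untreated, so genotype and control treatment, and HHT and time in culture, cannot be told apart from the labels. The labels do not say that replicates were separate cultures, so each p-value measures the spread between these libraries alone. The mutant rests on lines F3 and G7 and wild type on the parent line.

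H/ACA snoRNAs are nucleolar guides. Each forms hairpins that pair with ribosomal RNA and direct dyskerin (DKC1) to convert a chosen uridine to pseudouridine, and a few act in the cutting of the ribosomal RNA precursor instead. The scaRNAs do the same work, or guide methylation, on the small nuclear RNAs of the spliceosome and gather in Cajal bodies. Most members of both classes are cut from introns of host genes after splicing, and none is known to be translated.

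The sequences that follow are those of the 6 SNORA and 3 SCARNA members of at most 300 bases with the highest mean RiboLace CPM (counts scaled to the total of the library), given because they carry most of the reads discussed later. SCARNA21, with 112 summed reads, stood within rounding of SCARNA22, with 136, on that scale. They are the GENCODE 29 transcript sequences, written 5′ to 3′ as DNA letters. The capitals mark the ACA box near the 3′ end and the match to ANANNA, the H box consensus, nearest the middle.
SNORA53: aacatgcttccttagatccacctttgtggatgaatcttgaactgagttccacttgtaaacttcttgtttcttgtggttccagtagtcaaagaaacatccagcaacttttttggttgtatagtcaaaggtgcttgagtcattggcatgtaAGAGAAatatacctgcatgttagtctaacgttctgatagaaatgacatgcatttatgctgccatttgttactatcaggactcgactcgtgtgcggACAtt
SNORA31: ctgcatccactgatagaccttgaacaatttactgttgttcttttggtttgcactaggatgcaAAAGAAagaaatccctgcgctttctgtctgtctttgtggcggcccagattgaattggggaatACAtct
SNORA73B: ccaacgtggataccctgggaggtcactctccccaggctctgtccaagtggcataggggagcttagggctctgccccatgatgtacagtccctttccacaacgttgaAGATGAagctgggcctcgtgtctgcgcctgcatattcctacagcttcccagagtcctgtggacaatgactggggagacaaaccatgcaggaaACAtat
SNORA38: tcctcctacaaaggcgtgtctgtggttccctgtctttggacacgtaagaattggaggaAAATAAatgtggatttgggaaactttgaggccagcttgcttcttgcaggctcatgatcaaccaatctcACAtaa
SNORA3B: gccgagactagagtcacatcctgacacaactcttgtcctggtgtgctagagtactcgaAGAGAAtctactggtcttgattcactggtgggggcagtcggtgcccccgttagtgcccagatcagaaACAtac
SNORA14B: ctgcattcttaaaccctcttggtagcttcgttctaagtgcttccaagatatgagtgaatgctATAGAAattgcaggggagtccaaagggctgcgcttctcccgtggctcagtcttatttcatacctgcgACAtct
SCARNA8: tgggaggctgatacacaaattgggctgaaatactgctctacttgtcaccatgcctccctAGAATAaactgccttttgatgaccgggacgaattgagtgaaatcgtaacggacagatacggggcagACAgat
SCARNA1: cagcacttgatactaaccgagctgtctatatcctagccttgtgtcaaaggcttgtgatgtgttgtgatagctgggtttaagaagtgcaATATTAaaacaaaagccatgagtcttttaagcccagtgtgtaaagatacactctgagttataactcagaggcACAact
SCARNA21: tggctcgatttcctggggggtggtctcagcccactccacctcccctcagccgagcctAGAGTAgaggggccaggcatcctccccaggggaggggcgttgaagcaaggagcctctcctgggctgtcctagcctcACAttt

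SNORA53 lies at chr12:98599635-98599883 on the plus strand inside SLC25A3, the mitochondrial phosphate carrier. SNORA31 lies at chr13:45337480-45337609 on the minus strand inside TPT1, and SNORA73B, also called U17b, at chr1:28508559-28508762 on the plus strand inside RCC1. SNORA38 lies at chr6:31623079-31623210 on the plus strand inside PRRC2A, SNORA3B at chr11:8685439-8685569 on the plus strand inside RPL27A, and SNORA14B at chr1:235127803-235127937 on the minus strand inside TOMM20. SCARNA8 lies at chr9:19063656-19063786 on the minus strand inside HAUS6, SCARNA1 at chr1:27834401-27834566 on the plus strand inside PPP1R8, and SCARNA21 at chr17:7906122-7906260 on the plus strand inside CHD3. All coordinates are on GRCh38.

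Most members carried the ACA end of the H/ACA class, in shares near those of all annotated genes with the same symbols. An ACA with 2 to 4 bases after it at the 3′ end was found in 37 of 41 SNORA members (90.2%) and 10 of 14 SCARNA members (71.4%), against 83.7% of all annotated SNORA genes, 70.8% of all annotated SCARNA genes and 3.24% of 278 annotated SNORD genes, the C/D box class. The SNORA members without it were SNORA33, SNORA71B, SNORA71D and SNORA74D. A C box (TGATGA) in the first 20 bases together with a D box (CTGA) in the last 15 was found in SCARNA5, SCARNA6, SCARNA7 and SCARNA12, in no SNORA member and in 66.5% of SNORD genes. ANANNA is too loose to tell the classes apart, being present in 41 of 41 SNORA members, 13 of 14 SCARNA members and 83.1% of SNORD genes. TGAG, the letters of the Cajal body box, occurred in 71.4% of SCARNA members, 43.9% of SNORA members and 87.1% of SNORD genes. All motifs were searched on the strand of the RNA, over the whole RNA unless a window is named, and a match is no evidence of a working box.

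Members were 122 to 330 bases long, with a median of 135. On the same strand, 54 of the 55 lay inside a host gene, in 49 different hosts, and SNORA20B had none. An exon of another gene covered part of 5 members on the same strand (9.09%), namely SNORA53, SNORA31, SNORA20, SCARNA12 and SNORA36B. Reads of these 5 and of the overlapping transcript cannot be told apart in gene counts. The 85 annotated H/ACA genes listed at 0 in RiboLace had such an overlap in 59 cases (69.4%), and the 31 with 1 to 19 reads in 4 (12.9%). RN7SK, RMRP, TERC and SNORA73A were listed at 0 in every library. Near-identical copies are a further limit, since 8 of 55 members were at least 90% identical to another annotated H/ACA gene, among them SNORA36C with SNORA36A (97.0%), SNORA73B with SNORA73A (93.2%) and SNORA14B with SNORA14A (91.1%).

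Depth differed between the assays. Mutant RiboLace libraries held 1192811 and 465052 counts and wild-type ones 2034796 and 1054581, against 19250789 to 21925693 in total RNA. Each of the 55 members was detected in every RiboLace library. In total RNA, 22 to 27 were detected per HHT library, 27 to 35 per control library and 33 or 34 per wild-type library. A count of 0 allows up to 3 reads, or 1.47 to 6.45 CPM in RiboLace and 0.137 to 0.156 CPM in total RNA. Gene counts do not separate the alleles of RUNX1, which stood at 75.5 and 77.0 CPM in F3 controls, 129 and 108 CPM in G7 controls and 134 and 125 CPM in wild-type total RNA, and so do not check the genotype labels. The myeloid markers PTPRC, CD33, MPO, SPI1 and LYZ were read in every library, and CSF1R stood at 0.838 and 0 CPM in mutant RiboLace against 27.5 and 15.2 CPM in wild-type RiboLace. Of 6 markers of other cell types, EPCAM and HBB were at 0 in every library, and the 6 summed to 15.9 and 23.7 CPM in mutant RiboLace against 6.39 and 13.3 CPM in wild-type RiboLace, nearly all of it COL1A1. The part of these marker differences in the results on the members was not tested.

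In RiboLace a few guides made up most of the class. The 55 members together took 1.24% and 1.51% of mutant RiboLace counts and 0.544% and 0.576% of wild-type RiboLace counts, and the 5 most abundant took 70.5% and 69.1% of the members' reads in the mutant and 69.1% and 66.0% in wild type. SNORA53 was the most counted, at 3555.5 and 3717.9 CPM in the mutant and 1753.5 and 1507.7 CPM in wild type. SNORA31, a guide for 28S ribosomal RNA, stood at 1675.0 and 2341.7 CPM in the mutant and 717 and 845 CPM in wild type. Both lie partly over an annotated exon of their host. SNORA73B, which takes part in the processing of the precursor of 18S ribosomal RNA, stood at 1501.5 and 1546.1 CPM in the mutant and 446 and 383 CPM in wild type. SNORA38 stood at 921 and 1576.2 CPM in the mutant and 520 and 503 CPM in wild type, and SNORA3B at 1114.2 and 1245.0 CPM in the mutant and 320 and 567 CPM in wild type. For each of these 5 guides both mutant libraries lay above both wild-type libraries, as they did for 28.8% of the 11494 genes with at least 20 RiboLace reads.

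Levels of different genes were compared per 100 bases of RNA, as the mean CPM over the 4 RiboLace libraries. On that scale SNORA31 (1072.8) and SNORA53 (1057.7) led, followed by SNORA38 (667), SNORA3B (620), SNORA73B (475) and SNORA14B (320). SNORA31 and SNORA53 differed by less than the spread between their own libraries. SNORA65 (206), SNORA23 (153), SNORA74A (136) and SNORA30 (113) came next. The highest scaRNA was SCARNA8 (96.0), also called U92, which guides modification of U2 RNA. SCARNA1 (36.6) and SCARNA7 (27.0) were lower, and the lowest member was SNORA80D (3.44).

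**Figure D1:**
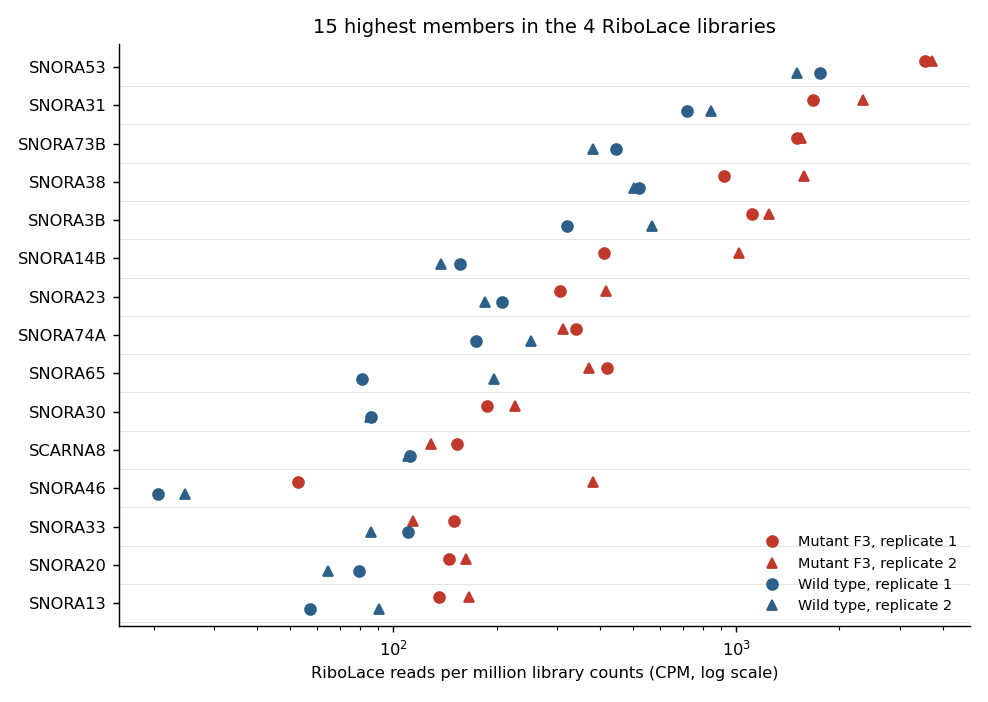
Level of the 15 members with the highest mean RiboLace CPM, each on its own row, in CPM on a log axis. Red marks are mutant F3 libraries and blue marks wild-type libraries, circles replicate 1 and triangles replicate 2, and for SNORA53 the mutant marks sit at 3555.5 and 3717.9 CPM, above the wild-type marks at 1753.5 and 1507.7.

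The same RNAs were scarce in total RNA. Summed over the 55 members, RiboLace held 12432.0 and 15092.9 CPM in mutant F3, against 9.75 and 8.67 CPM in the total RNA controls of that line. In wild type RiboLace held 5440.3 and 5761.5 CPM, against 11.2 and 9.51 CPM in total RNA. The ratio of means was 1494.6 in mutant F3 and 541 in wild type. Since the members were chosen by their RiboLace reads, these ratios describe the libraries and carry no test. The gap was not shared by all RNA types. In wild type, protein-coding genes had a ratio of RiboLace over total RNA of 0.776, all SNORD genes 165 and snRNA genes 3122.5, beside the 541 of the members.

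Individual guides spread widely in that ratio. Over pooled reads of mutant F3, 18 of 55 members had no read in total RNA, 16 had 1 to 3 and 21 had 4 or more. In wild type 16 had none, 12 had 1 to 3 and 27 had 4 or more. With the first kind set to 3 reads as a bound, the median ratio was 433 in mutant F3 and 144 in wild type, and 49 of 55 members exceeded 100 in mutant F3 and 38 of 55 in wild type. The highest ratios rested on almost no total RNA reads. SNORA38 had a ratio of 45800.5 in mutant F3, on 1 read of total RNA (95% exact interval 8210.0 to 1809997.1). SNORA53 had a ratio of 37312.9 in mutant F3, on 4 reads of total RNA (14565.5 to 136989.8), and 33755.2 in wild type, on 2 reads (9339.7 to 278802.1). SNORA31 was at least 25725.3-fold higher in RiboLace in mutant F3, where total RNA had no read.

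The following guides had more total RNA reads, which divide the ratio, and lay below those highest values. SNORA73B had 1081.9 (834 to 1429.0) in mutant F3 and 226 (179 to 289) in wild type, above the members' medians of 433 and 144. SNORA26, a guide for 28S ribosomal RNA, had 45.8 (31.9 to 66.6) in mutant F3 and 16.9 (11.6 to 24.7) in wild type. SCARNA7, also called U90 and a C/D box scaRNA, had 82.1 (58.6 to 117) in mutant F3 and 78.9 (56.0 to 114) in wild type. The lowest was SNORA5C, at 12.5 in mutant F3 and 6.54 in wild type. Thus SNORA73B and SNORA26 had intervals that lay higher in mutant F3 than in wild type, and the intervals of SCARNA7 overlapped almost wholly. These intervals cover counting error only.

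**Figure D2:**
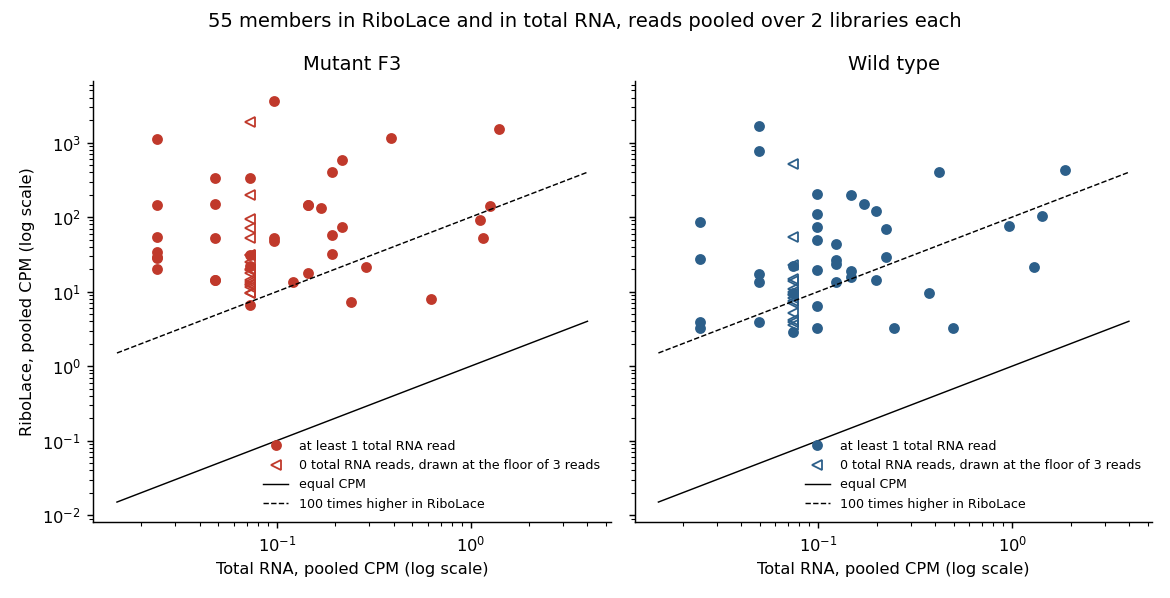
RiboLace level against total RNA level of each member, in CPM over pooled libraries on 2 log axes, for mutant F3 on the left and wild type on the right. Open triangles are members with 0 total RNA reads, drawn at the 3-read limit, and the lines mark equal levels and a ratio of 100, which 49 of 55 members exceed in mutant F3 and 38 of 55 in wild type.

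Within RiboLace the mutant held more of these guides than wild type. The members' sum averaged 13762.5 ± 1881.6 CPM in the mutant and 5600.9 ± 227 CPM in wild type (SD, n = 2 each), a ratio of 2.46. In such bulk libraries, more RNA per cell and more cells that hold it cannot be told apart. SNORA members summed to 11918.1 and 14523.1 CPM in the mutant and 5057.0 and 5374.6 CPM in wild type, a ratio of 2.53. SCARNA members summed to 514 and 570 CPM in the mutant and 383 and 387 CPM in wild type, a ratio of 1.41. The groups did not overlap for any of the 3 sums. At similar depth, mutant replicate 1 had 12432.0 CPM at 1192811 counts and wild-type replicate 2 had 5761.5 CPM at 1054581 counts. The shallowest library, mutant replicate 2 at 465052 counts, had the highest sum, 15092.9 CPM. The part of depth in the gap was not tested. In RiboLace all SNORD genes had a mutant over wild-type ratio of 1.86 and genes of type misc_RNA 1.53. The ratio was 0.931 for snRNA genes and 0.708 for MIR6087, the most counted RiboLace gene. The SNORD sums did not overlap either, at 4913.6 and 5640.2 CPM in the mutant and 2749.7 and 2911.1 CPM in wild type.

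Gene by gene, 28 of the 55 members rose in mutant RiboLace and 0 fell, by edgeR's quasi-likelihood test with Benjamini-Hochberg adjustment over 9805 genes at an adjusted p under 0.05. Of all genes tested, 6.18% rose and 5.59% fell. The filter on low counts kept 51 members, all but SCARNA18, SNORA5C, SNORA71A and SNORA80D, and 8 of the 51 passed it through the mutant libraries alone, where they had to be higher. These were SNORA2A, SNORA36B, SNORA36C, SNORA49, SNORA58, SNORA71D, SNORA79B and SCARNA14, of which SNORA2A, SNORA36C and SNORA71D are among the 28. Among the 36 members above the filter's limit of 8.9 CPM in both wild-type libraries, 23 rose. The log2 fold change of the 51 had a median of 1.19 and a range of -0.11 to 3.10, beside a median of -0.01 over all genes. Without the filter on low counts, 45 of 55 members had both mutant libraries above both wild-type libraries and 0 had them below. Among all genes with at least 20 RiboLace reads 28.8% were above. That read minimum sums both genotypes, so it is itself a filter. SNORA71D, with 29 mutant and 9 wild-type reads, met it through its mutant reads. SCARNA21B, with 16 mutant and 29 wild-type reads, met it through its wild-type reads. For such members the rule favoured the direction. Among the SNORD genes 13 of 43 rose and 3 fell, with a median of 0.25, and among the snRNA genes 16 of 90 rose and 13 fell, with a median of -0.03.

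The call of single members depended on the libraries. Leaving out 1 library at a time left 12 members called without wild-type replicate 1, 25 without wild-type replicate 2, 15 without mutant replicate 1 and 11 without mutant replicate 2, and DESeq2 called 11 of the 25 members to which it gave an adjusted p. All 28 kept a positive fold change in the 11 other settings tried. SNORA73B, SNORA80E, SNORA14B and SNORA75 stayed called in all 11.

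Among the guides with the smallest p, SNORA14B had 412 and 1021.4 CPM in the mutant and 156 and 138 CPM in wild type (log2 fold change 2.19 ± 0.33 SE, edgeR adjusted p = 4.88e-05). SNORA73B rose by 1.81 ± 0.32 (edgeR adjusted p = 0.000376), and by 1.63 to 1.98 with any 1 library left out. SNORA46, hosted by CNOT1, had the largest fold change, at 52.8 and 383 CPM in the mutant and 20.6 and 24.7 CPM in wild type (3.10 ± 0.48, edgeR adjusted p = 5.15e-05). That value leaned on 1 library. Without mutant replicate 2 SNORA46 stood at 1.20 (edgeR adjusted p = 0.0684) and SNORA14B at 1.44, still called. SNORA36C had 24.3 and 28.0 CPM in the mutant and 3.44 and 4.74 CPM in wild type (2.61 ± 0.52, edgeR adjusted p = 0.00141), with reads that its copy SNORA36A may share. It was tested only because the mutant libraries passed the filter, so the direction of that change was set by the filter. SNORA65, a guide for 28S ribosomal RNA inside RPL12, had 421 and 372 CPM in the mutant and 81.1 and 196 CPM in wild type (1.51 ± 0.31, edgeR adjusted p = 0.00163), a call lost without wild-type replicate 1. In each of these 5 guides the lower mutant library lay above the higher wild-type library.

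The remaining abundant guides rose by smaller amounts or missed the threshold. SNORA31 (1.30 ± 0.34), SNORA38 (1.21 ± 0.32), SNORA3B (1.37 ± 0.32) and SNORA30 (1.19 ± 0.26) rose, at edgeR adjusted p-values of 0.0112, 0.0133, 0.00559 and 0.0033. SNORA31, SNORA38, SNORA3B and SNORA30 were not called without mutant replicate 2, nor SNORA31 and SNORA3B without wild-type replicate 1. SNORA53 was at the edge, with 1.09 ± 0.37 and an edgeR adjusted p of 0.0485, and it missed the threshold with RLE size factors (0.0509), with no filter (0.0504) and with any 1 library left out (0.0613 to 0.282). SNORA20 (1.01 ± 0.27, adjusted p = 0.0131) and SNORA13, a guide for 18S ribosomal RNA (0.98 ± 0.27, adjusted p = 0.0177), rose, and each lost its call with 3 of the 4 libraries left out in turn. SNORA23 (0.80 ± 0.27, adjusted p = 0.0508), SNORA74A, also called U19 (0.58 ± 0.27, adjusted p = 0.16), and SNORA33 (0.38 ± 0.27, adjusted p = 0.377) did not pass. SNORA23 passed with scaling to library totals alone (0.88, adjusted p = 0.0274), with scaling on protein-coding genes (0.82, adjusted p = 0.0439) and without MIR6087 and mitochondrial genes (0.80, adjusted p = 0.0486). SNORA53, the guide with the most reads, was called in 5 of the 11 other settings.

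Some less abundant SNORA members were also clear of wild type in both libraries. SNORA75, inside the gene of nucleolin (NCL), had 59.5 and 53.8 CPM in the mutant and 23.6 and 11.4 CPM in wild type (1.54 ± 0.35, edgeR adjusted p = 0.0043). SNORA80E had 52.8 and 58.1 CPM in the mutant and 20.1 and 11.4 CPM in wild type (1.65 ± 0.35, adjusted p = 0.00235). SNORA66, inside RPL5, had 56.2 and 40.9 CPM in the mutant and 14.7 and 17.1 CPM in wild type (1.61 ± 0.35, adjusted p = 0.00275). SNORA5A, SNORA71D and SNORA74D rose too, by 1.60 ± 0.36, 2.51 ± 0.59 and 1.25 ± 0.33. Without mutant replicate 1 the calls of SNORA66, SNORA5A, SNORA71D and SNORA74D were lost. The other 8 that rose were SNORA2A, SNORA11B, SNORA26, SNORA28, SNORA38B, SNORA55, SNORA74B and SNORA80B, by 0.96 to 2.19. Each of these 8 stayed called in only 5 to 8 of the 11 other settings, and DESeq2 gave some of them no adjusted p. The largest value, 2.19, was that of SNORA2A, tested through the mutant libraries alone. SNORA71D had 15.9 and 21.5 CPM in the mutant and 2.95 and 2.84 CPM in wild type, a few reads per library, so its fold change is poorly set. It was tested through the mutant libraries alone, and its call was also lost without wild-type replicate 1 (edgeR adjusted p = 0.0772) or mutant replicate 2 (adjusted p = 0.149). Of the 38 SNORA members tested 26 rose. Among the 28 of them above the filter's limit in both wild-type libraries 23 rose, with log2 fold changes of 0.36 to 3.10 and a median of 1.20.

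Among the scaRNAs, 2 of 13 tested rose and 0 fell, with a median log2 fold change of 0.33 and a range of -0.11 to 1.85. Of the 8 above the filter's limit of 8.9 CPM in both wild-type libraries 0 rose, with a median of 0.22 and a range of -0.11 to 0.86. The 2 that rose, SCARNA11 and SCARNA3, each lay under that limit in a wild-type library. SCARNA11, inside CHD4, had 33.5 and 34.4 CPM in the mutant and 10.3 and 6.64 CPM in wild type (1.85 ± 0.42, edgeR adjusted p = 0.00467), a call lost without mutant replicate 1, where it stood at 1.84 (adjusted p = 0.0533). SCARNA3 had 21.8 and 15.1 CPM in the mutant and 2.95 and 9.48 CPM in wild type (1.75 ± 0.55, adjusted p = 0.0349), and lost its call without wild-type replicate 1, mutant replicate 1 or mutant replicate 2. The well-counted scaRNAs lay closer to wild type. SCARNA8 had 153 and 129 CPM in the mutant and 112 and 110 CPM in wild type (0.30 ± 0.26, adjusted p = 0.481). SCARNA7 had 75.5 and 131 CPM in the mutant and 78.6 and 71.1 CPM in wild type (0.33 ± 0.29, adjusted p = 0.478). SCARNA1, also called ACA35 and a guide for U2 RNA, had 81.3 and 43.0 CPM in the mutant and 40.8 and 77.8 CPM in wild type (0.14 ± 0.32, adjusted p = 0.817). The groups overlapped for SCARNA7 and SCARNA1 and not for SCARNA8. SCARNA5 (0.07 ± 0.35), SCARNA22 (-0.02 ± 0.35) and SCARNA13, also called U93 (-0.11 ± 0.48), stood near 0, and SCARNA21 at 0.86 ± 0.41 (adjusted p = 0.169). Both mutant libraries lay above both wild-type libraries in 39 of 41 SNORA and 6 of 14 SCARNA members, and whether the 2 classes differ in their response was not tested.

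**Figure D3:**
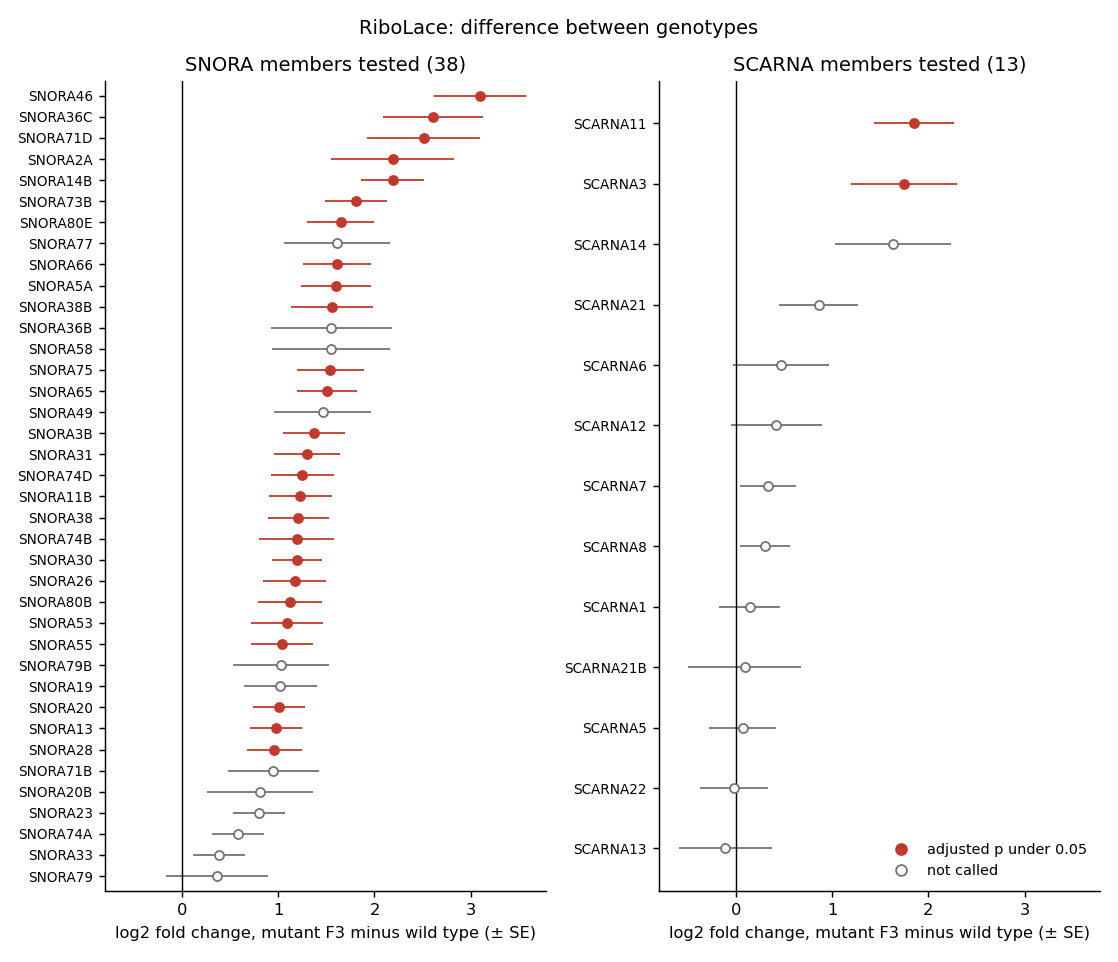
Log2 fold change of mutant F3 over wild type in RiboLace for the 38 SNORA and 13 SCARNA members tested, ordered by size, with bars of 1 standard error. Filled red points passed an edgeR adjusted p of 0.05, which 26 SNORA and 2 SCARNA members did, and SNORA46 at 3.10 is the farthest to the right.

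The host genes were set beside their guides. Of 47 hosts tested in RiboLace, 1 rose and 0 fell, in a comparison where 6.18% of all genes rose and 5.59% fell, with a median log2 fold change of -0.04 and a range of -0.85 to 1.20. In the 27 pairs whose member rose, the host rose in 1 and did not pass the test in 26. Among those 27 members are SNORA2A, SNORA36C and SNORA71D, tested through the mutant libraries alone. The filter set the direction of their change. The pair that rose together was SNORA36C and AAK1, a kinase of endocytosis, at 106 and 151 CPM in the mutant and 50.1 and 54.0 CPM in wild type (1.20 ± 0.28, edgeR adjusted p = 0.0053), a call lost without mutant replicate 2. SLC25A3, which holds SNORA53, had 319 and 290 CPM in the mutant and 476 and 401 CPM in wild type (-0.59 ± 0.28, adjusted p = 0.168). TPT1, which holds SNORA31, stood at -0.04 (adjusted p = 0.95) and RCC1, the exchange factor of Ran that holds SNORA73B, at 0.08 (adjusted p = 0.875). For these 3 pairs the guide passed the test and the host compared did not. SNORA73B lies inside 2 genes on its strand, and only RCC1 was compared. CNOT1, a scaffold of the deadenylase complex that holds SNORA46, stood at 0.48 (adjusted p = 0.253), TOMM20, a mitochondrial import receptor that holds SNORA14B, at 0.21 (adjusted p = 0.653), and the ribosomal protein genes RPL27A and RPL12 at -0.74 (adjusted p = 0.0802) and -0.57 (adjusted p = 0.168). A p above the threshold does not show that these hosts were equal in both genotypes.

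**Figure D4:**
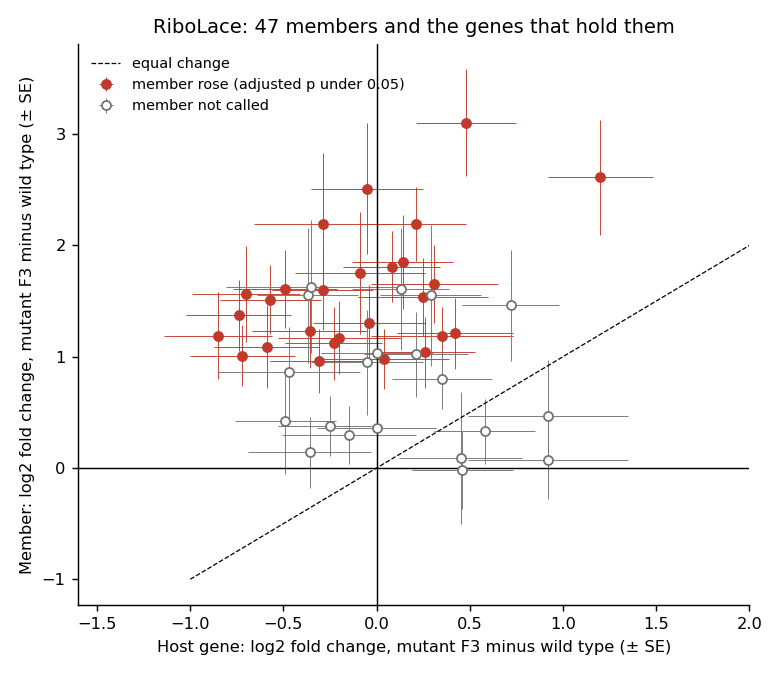
Log2 fold change of mutant F3 over wild type in RiboLace for 47 members (vertical axis) against that of the gene that holds each (horizontal axis). Points of members that rose spread upward while their hosts stay between -0.85 and 1.20, with SNORA36C and AAK1 at 2.61 and 1.20. SNORA36C was tested through the mutant libraries alone.

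A list of genes for the H/ACA particle, its assembly and related steps is here called the particle and assembly genes. Of 19 tested, 0 rose in mutant RiboLace and 1 fell, with a median log2 fold change of -0.29. With 6.18% of all genes rising and 5.59% falling, these counts lie near those of genes at large. NOP10, a core protein of the particle, fell to 62.0 and 75.3 CPM in the mutant, against 168 and 119 CPM in wild type (-1.17 ± 0.28, edgeR adjusted p = 0.00766). That call was lost without wild-type replicate 1, mutant replicate 1 or mutant replicate 2. NHP2, another core protein, had 49.5 and 30.1 CPM in the mutant and 76.2 and 69.2 CPM in wild type (-0.85 ± 0.31, adjusted p = 0.0656). DKC1, the pseudouridine synthase itself, averaged 170 ± 6.38 CPM in the mutant and 246 ± 10.5 CPM in wild type (SD, n = 2 each; -0.60 ± 0.26, adjusted p = 0.131). For NOP10, NHP2 and DKC1 both mutant libraries lay below both wild-type libraries. The same held for 2992 of the 11494 genes with at least 20 RiboLace reads. Of the 21 particle and assembly genes found, 8 lay below in this way and 3 above. GAR1, the fourth core protein, stood at -0.14 ± 0.32 (adjusted p = 0.812), and the assembly factor SHQ1 at -0.93 (adjusted p = 0.146).

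In total RNA no member passed the test of mutant controls against wild type. Only 6 members passed the filter and 0 were called by edgeR, 0 at an unadjusted p under 0.05, 0 of 4 by DESeq2 and 0 of 46 with no filter. Of 13949 genes 2.49% rose and 2.07% fell, and with no filter 3.33% and 2.67% of 27575. SNORA73B had 1.79, 1.03, 2.13 and 2.21 CPM in mutant controls and 2.28 and 1.51 CPM in wild type (-0.08 ± 0.34). SCARNA7 had 0.994, 1.22, 1.61 and 1.87 CPM in mutant controls and 1.04 and 0.899 CPM in wild type (0.56 ± 0.33, edgeR adjusted p = 0.376). Mutant and wild-type values overlapped for both. SNORA26 stood at -0.07 ± 0.28, SNORA33 at -0.02 ± 0.28, SNORA5C at -0.01 ± 0.51 and SNORA71B at 0.11 ± 0.59. The members' sum was 10.4 ± 1.49 CPM in mutant controls (SD, n = 4) and 10.4 ± 1.19 CPM in wild type (SD, n = 2), or 9.21 CPM in F3 and 11.7 CPM in G7. The wild-type libraries held 216 and 201 such reads in all, so most single members had too few reads for a test.

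Set against wild type alone, the F3 controls, the line used for RiboLace, also gave 0 called of 5 members. SNORA73B stood at -0.41 ± 0.32 (edgeR adjusted p = 0.392) in that fit, where 11.7% of 13565 genes rose and 11.0% fell. Among hosts 4 of 49 rose and 8 fell, with a median of -0.02 beside -0.01 over all genes. The hosts that fell included RCC1 (-0.35), SLC25A3 (-0.35) and DANCR, a noncoding RNA that holds SNORA26 (-0.77). Among the particle and assembly genes 2 of 20 rose and 10 fell. All of the 4 core genes were lower in F3, GAR1 at -0.44 (adjusted p = 0.00503), DKC1 at -0.38 (adjusted p = 0.00631), NOP10 at -0.37 (adjusted p = 0.0128) and NHP2 at -0.29 (adjusted p = 0.0475). With F3 and G7 taken as 1 group, 0 of 20 particle genes passed. An unadjusted edgeR p under 0.05 was found for 9 of these 20, and for 3058 of all 13949 genes tested. Of 49 hosts 2 fell, DANCR (-0.62 ± 0.13, adjusted p = 0.0297) and SLC25A3 (-0.36 ± 0.09, adjusted p = 0.0479). No host was called without either wild-type library or without control replicate 2, and 1 was called without control replicate 1 or 4. The difference between the lines in controls was not tested.

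After HHT the members' sum in total RNA was lower, though not every guide tested passed. The members summed to 5.32, 4.95, 8.24 and 6.8 CPM in HHT libraries and 9.75, 8.67, 11.9 and 11.4 CPM in controls, and the groups did not overlap. Of 4 members that passed the filter 2 fell and 0 rose, in a comparison where 39.9% of 13621 genes rose and 39.3% fell, so a fall was common. SNORA26 fell by 1.88 ± 0.28 on the log2 scale (edgeR adjusted p = 2.48e-05), with 0.463, 0.275, 0.496 and 0.319 CPM in HHT libraries and 1.04, 1.27, 1.09 and 1.48 CPM in controls. SNORA33 fell by 1.10 ± 0.25 (adjusted p = 0.00119), with 0.741, 0.413, 1.19 and 0.775 CPM in HHT libraries and 1.49, 1.03, 1.56 and 1.57 CPM in controls. All HHT libraries lay below all controls for SNORA26, while 1 HHT library overlapped the controls for SNORA33. SNORA73B (-0.31 ± 0.20, adjusted p = 0.174) and SCARNA7 (-0.44 ± 0.21, adjusted p = 0.0711) did not pass. Scaling to library totals alone moved the median of all genes by 0.23 and the calls to 6682 higher and 4115 lower, beside 5438 higher and 5355 lower, and left SNORA26 at -1.64 and SNORA33 at -0.87, both called.

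With no filter on low counts 7 of 45 members were called under HHT, all lower, where 21.5% of 28705 genes were higher and 20.2% lower, so the share of members called lower was no greater than that of all genes. Beside SNORA26 and SNORA33 they were SNORA5C (12 HHT and 40 control reads over 4 libraries each), SCARNA21 (2 and 19), SNORA71A (8 and 22), SCARNA8 (0 and 8) and SNORA75 (4 and 16). C/D box snoRNAs showed the same direction, with 3 of 4 tested SNORD genes falling and a sum over all SNORD genes of 6.83 ± 1.24 CPM in HHT libraries and 16.1 ± 3.31 CPM in controls (SD, n = 4 each).

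**Figure D5:**
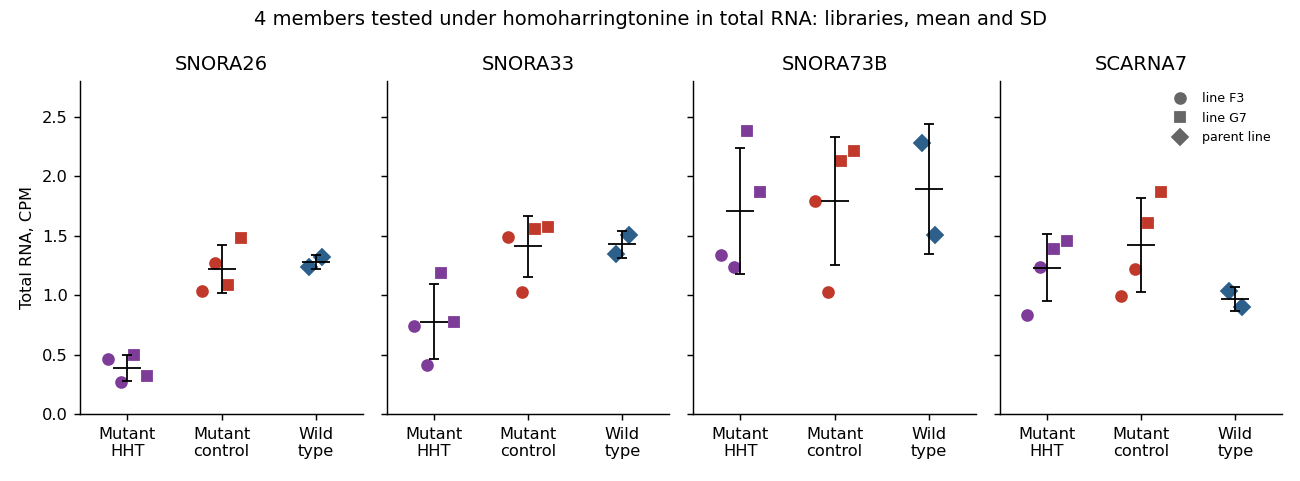
Total RNA level in CPM of SNORA26, SNORA33, SNORA73B and SCARNA7, 1 panel each, in HHT libraries, mutant controls and wild type from left to right, with each library as a point and the mean and SD as a bar. For SNORA26 the HHT points sit at 0.275 to 0.496 CPM, below all control points at 1.04 to 1.48 CPM.

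The hosts of these guides moved in both directions under HHT. Of 49 hosts 14 rose and 28 fell, beside 39.9% and 39.3% of all genes, or 20 and 20 with scaling to library totals alone. DANCR, which holds SNORA26, fell by 0.72 ± 0.09 on the log2 scale (edgeR adjusted p = 3.99e-06), and RPS12, which holds SNORA33, fell by 0.65 ± 0.06 (adjusted p = 4.2e-07). Both stayed lower with library totals, at -0.49 and -0.41. KPNA4, an importin that holds SCARNA7, rose by 1.44 (adjusted p = 1.47e-10), while SCARNA7 itself stood at -0.44. RCC1 stood at -0.16 (adjusted p = 0.0284), and at 0.08 with library totals, where it did not pass. The 2 guides that fell thus lay in hosts that also fell, and the difference between guide and host was not tested.

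Among 20 particle and assembly genes 11 rose and 6 fell under HHT, beside 39.9% and 39.3% of all genes. With library totals 14 rose and 3 fell, where the calls over all genes also lean to higher, at 6682 against 4115. The Cajal body protein COIL rose by 1.12, the assembly factor NAF1 by 1.10, the assembly factor NUFIP1 by 1.14 and the exonuclease TOE1 by 1.85. GAR1 (0.50, edgeR adjusted p = 1.4e-05) and DKC1 (0.28, adjusted p = 0.000809) rose, with 295 CPM in HHT libraries and 207 CPM in controls for DKC1. The other core genes did not keep their calls under both scalings. NHP2 stood at -0.33 (adjusted p = 0.000158) and at -0.10 with library totals (adjusted p = 0.127), NOP10 at -0.28 (adjusted p = 0.00292) and at -0.05 (adjusted p = 0.54). TERT, the telomerase protein, whose RNA is itself of the H/ACA class, fell by 1.98 (adjusted p = 4.5e-08), and at -1.75 it stayed called with library totals.

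The response of the guides to HHT was compared between lines by the interaction of line and treatment. Of 5 members tested 0 were called, and 0 had an unadjusted p under 0.05, against 1.79% of 14435 genes called higher and 2.00% called lower. DESeq2 gave an adjusted p to 1 of them and called 0. SNORA33 stood at 0.42 ± 0.52, SNORA26 at -0.04 ± 0.65 and SNORA73B at 0.07 (G7 minus F3, log2). Of 49 hosts tested, ODC1, which holds SNORA80B (-0.62 ± 0.12, edgeR adjusted p = 0.00713), and ATP2B4 (0.71 ± 0.14, adjusted p = 0.00738) differed between lines. Of 20 particle genes tested, PIH1D1 did (-0.46 ± 0.11, adjusted p = 0.0226). The call of PIH1D1 was lost without control replicate 1 or 2 or any 1 HHT library, and 0 hosts were called without control replicate 1 and 1 without HHT replicate 2. ODC1 and ATP2B4 were named after their values were seen.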

How the data were processed

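Gene-level read counts of 14 libraries were used as the authors deposited them, raw and not normalized, in 1 table whose rows are Ensembl gene IDs. The GRCh38 genome, the aligner STAR (version 2.6.0b) and DESeq2 are named per the submitters' processing notes, which give none of them a step. Per the labels' protocols, RNA was treated with DNase and cells received DMSO or 100 nM HHT for 8 h. How reads were counted, on which annotation and strand, whether rRNA was removed and how RiboLace libraries were made is not given in the sources used here. Reads of overlapping or antisense genes and of close copies therefore cannot be told apart.

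IDs were matched to GENCODE 29, 57433 of 58037 by ID and 53647 with the same version, and the 604 others kept their IDs. No column was left out. Hosts are genes whose span holds a member on the same strand. Where more than 1 gene did, a protein-coding gene was taken first, then the most counted. SNORA30, SNORA73B, SNORA74A, SNORA74D and SCARNA11 each lay inside 2 such genes, so their host may be another than the one compared. CPM are counts scaled to the total of the library. Genes were filtered with filterByExpr (minimum count 10) and scaled by TMM, then tested by quasi-likelihood in edgeR 4.0.16 (R 4.3.3). P-values were adjusted over all genes tested by the method of Benjamini and Hochberg, with calls at an adjusted p under 0.05. The standard error (SE) was derived from the log2 fold change and the square root of F. HHT against control had line as a covariate, and mutant against wild type in total RNA took F3 and G7 as 1 group. Ratios between assays used pooled reads, with a bound at 3 reads over the group for a count of 0 and exact 95% intervals otherwise. Motifs and identities were computed with Python 3.11.15, Biopython 1.88 and SciPy 1.17.1.

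The list of 22 symbols for the H/ACA particle, its assembly and related steps, 21 of them found, came from general knowledge. It includes TERC, an RNA listed at 0 in every library, and the symbol not found was PAPD5. Members and lists were chosen with earlier results of these data known. Named were the 15 members with the highest RiboLace CPM, the 8 with the smallest p in RiboLace and members called in any fit (up to 15), members passing the filter in a total RNA fit, those nearest the threshold, SCARNA members with at least 100 RiboLace reads, their hosts, the 4 core proteins and up to 6 more.

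Other settings were DESeq2 1.42.0, no filter, scaling by RLE or by library totals, replicate numbers as a block, removal of MIR6087 and mitochondrial genes, F3 or G7 alone, other read minimums (10 and 50) and each library left out. Scaling on protein-coding genes alone was chosen after seeing the data. In HHT and control libraries a replicate number marks the same line, which is why deviations from group means correlated (r 0.438 to 0.518); within lines r was 0.099 and 0.249. In RiboLace r was -0.061, which with so few libraries cannot show whether those of the same number share a batch. With replicate numbers as a block 1645 of all genes were called in RiboLace, beside 1154 without the block. Whether such a batch exists was not tested. Replicate pairs differed beyond the sampling noise, by a chi-square of 2.95 to 11.3 for each degree of freedom. The tests were tried on simulated counts with known changes. At a log2 change of 1 the RiboLace test recovered 22% of them. The total RNA tests recovered 70% for genotype, 91% for HHT and 73% for the difference between lines. At a log2 change of 2 the RiboLace test recovered 89%. Changes of the smaller size are therefore often missed in RiboLace.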

Additional observations from a re-analysis of the deposited data

Results flagged for a closer look

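SNORA33 in mutant control total RNA had 1 library apart from the others. Control replicate 2 stood at 1.03 CPM while the other 3 controls stood at 1.49 to 1.57 CPM, a gap of 0.849 of the whole range, above the 95% critical value of Dixon's test for 4 libraries. Of 22 groups examined in this way it was the only one past that value, and chance flags about 1 in 20.

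In the response to HHT, 3 genes around the guides differed between lines by the interaction test of edgeR. Of 49 hosts 1 was called higher and 1 lower, and of 20 particle and assembly genes 0 and 1. Over all 14435 genes 1.79% were called higher and 2.00% lower, so these counts are no more than a few genes near that share. PIH1D1, an assembly factor of the particle, stood at -0.46 for G7 minus F3 on the log2 scale. ODC1, ornithine decarboxylase, which holds SNORA80B, stood at -0.62, and ATP2B4, a calcium pump of the plasma membrane, at 0.71.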

How the results depend on the processing

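In RiboLace, 24 to 31 members were called with RLE size factors, library totals, no filter, the replicate block, protein-coding scaling or without MIR6087 and mitochondrial genes, all higher, beside 28. DESeq2 called 11, and leaving out 1 library gave 11 to 25; the minimum of 10 or 50 reads gave 67 or 43 members in place of 55, with 28 and 25 called. Hosts called, 1 of 47, came to 2 with library totals, 4 with the replicate block and 0 to 6 with 1 library left out, and particle genes, 1 of 19, to 2 with the block and 0 to 2. The replicate block gave 31 members, SNORA23 among them (adjusted p = 0.0211), and changed no member call under HHT. The summed CPM, set to protein-coding totals, came to 18100.1 in the mutant and 7349.2 in wild type. Over all genes 1154 were called in RiboLace, 415 by DESeq2 and 247 to 1811 with 1 library left out.

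For mutant controls against wild type, hosts called (2) came to 1 with RLE, 4 in DESeq2, 12 with F3 alone, 6 with G7 alone and 0 to 2 with 1 library left out, and particle genes (0) to 1 with no filter, 1 in DESeq2, 12 with F3 alone and 1 with G7 alone. All genes called (636) came to 1655 with no filter, 1111 in DESeq2 and 43 to 649 with 1 library left out. Under HHT, members called (2) came to 7 with no filter and 2 to 3 with 1 library left out. In the difference between lines, hosts called (2) came to 0 to 3, particle genes (1) to 0 to 1 and all genes (548) to 178 to 1089 with 1 library left out, and to 823 genes with no filter.

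Members near 0 changed sign. In RiboLace SCARNA5 stood at -0.02 with no filter and SCARNA22 at 0.05 with library totals and 0.01 in DESeq2. With 1 library left out, SCARNA1 ranged from -0.51 to 0.57, SCARNA5 from -0.14 to 0.37, SCARNA7 from -0.04 to 0.70 and SCARNA22 from -0.31 to 0.40. In mutant controls SNORA73B stood at 0.20 and SNORA33 at 0.12 with G7 alone, and SNORA5C at 0.35 with F3 alone. With 1 library left out SNORA73B ranged from -0.35 to 0.24, SNORA33 from -0.10 to 0.10, SNORA26 from -0.18 to 0.00, SNORA5C from -0.55 to 0.79 and SNORA71B from -0.51 to 1.31. In the difference between lines SNORA73B ranged from -0.32 to 0.44, SCARNA7 from -0.47 to 0.11 and SNORA26 from -0.36 to 0.37. The causes were not tested. Under HHT no named member changed sign or lost its call, SNORA26 ranging from -2.01 to -1.64 and SNORA33 from -1.29 to -0.87. The limits are 2 RiboLace libraries per genotype, 1 mutant line in RiboLace and a few reads per member in total RNA.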

Other observations

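Guides that share a host differed in how they divided between the assays. TBRG4 holds SNORA5A and SNORA5C in introns. SNORA5A had 53.7 and 34.4 CPM in mutant RiboLace and 12.8 and 17.1 CPM in wild-type RiboLace, and SNORA5C 9.22 and 4.3 CPM in mutant RiboLace and 2.46 and 4.74 CPM in wild-type RiboLace. In total RNA the pooled reads were 4 of SNORA5A and 26 of SNORA5C in F3 controls, and 8 and 20 in wild type. The G7 controls were closer, with 6 and 5 reads of SNORA5A and 8 and 6 of SNORA5C, as were the 4 HHT libraries, with 5, 1, 3 and 1 reads of SNORA5A and 2, 3, 5 and 2 of SNORA5C. The ratio of RiboLace over total RNA in wild type was 72.0 (95% exact interval 33.5 to 177) for SNORA5A and 6.54 (2.74 to 14.6) for SNORA5C, intervals that do not overlap and cover counting error only. This pair was chosen after its values were seen.

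SNHG17, a noncoding host, holds SNORA71A, SNORA71B and SNORA71D. In mutant RiboLace SNORA71B had 24.3 and 12.9 CPM, SNORA71D 15.9 and 21.5 CPM and SNORA71A 6.71 and 8.6 CPM. In F3 control total RNA SNORA71B had 12 pooled reads and SNORA71A 10, while SNORA71D had 0. ATG16L1 holds SCARNA5 and SCARNA6, both with C and D boxes, and neither had more than 3 pooled reads in the total RNA of F3 controls or of wild type.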
